A study of Mus musculus with 12 samples.

Results

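The genes described here encode the nuclear-encoded subunits of the mouse respiratory chain and ATP synthase, with the complex I assembly factors that carry the Nduf name. They were chosen by name, not by measured values: protein-coding genes whose symbol starts with Nduf, Uqcr, Cox4 to Cox8 or Atp5, together with Sdha, Sdhb, Sdhc, Sdhd, Cycs and Cyct. This gave 97 of the 55471 genes in the deposited table, of which 21933 are protein-coding. By name they fall into 39 complex I subunits, 8 complex I assembly factors, 4 subunits of complex II, 8 of complex III, 2 forms of cytochrome c, 18 subunits of complex IV and 18 of ATP synthase. Ndufa4 and its paralog Ndufa4l2 sit among the complex I names, although Ndufa4 is known as a complex IV subunit. Cox8b and the second of the 2 entries named Atp5o were at 0 in all 12 libraries.

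RNA was sequenced from male germ cells of C57Bl mice whose germ cells carry the fluorescent protein tdTomato, after isolation by flow cytometry. Neither the promoter behind tdTomato nor the age of the mice is given in the sources used here. Leptotene and zygotene cells (LZ, early meiotic prophase) spent 6 days in culture, either without treatment or in 0.3 mM octyl-L2HG, an ester form of L-2-hydroxyglutarate that enters cells. Pachytene and diplotene cells (PD, later meiotic prophase) spent 48 hours in culture, either without treatment or in 24 mM oxamate, which blocks lactate dehydrogenase and, per the series text, brings 2-hydroxyglutarate down to the LZ level. The 4 groups hold 3 libraries each, from experiments that the series text calls independent, and libraries are called A, B and C here by a code that the groups share. Stage, culture time and sort gate change together between LZ and PD, so their parts in a difference cannot be told apart.

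The respiratory chain moves electrons from NADH and succinate through complexes I and II to ubiquinone, on through complex III and cytochrome c to oxygen at complex IV, and ATP synthase uses the proton gradient this builds. A core of its subunits is encoded in the mitochondrial genome, and the rest, most of the chain, in the nucleus. Some nuclear subunits have a second gene used in the testis, among them Cyct for cytochrome c and Cox6b2, Cox7b2 and Cox8c for complex IV, while the X chromosome, which carries a few subunit genes, is transcriptionally silenced in pachytene cells.

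Total counts per library ran from 10532504 to 15903788 in untreated LZ, 11271410 to 18432143 with octyl-L2HG, 15202579 to 21275486 in untreated PD and 19107780 to 21115131 with oxamate. Levels below are normalized counts, that is counts divided by TMM-adjusted library totals, and changes are log2 fold changes of normalized count + 1 from limma, called where the Benjamini-Hochberg adjusted p over all genes tested was under 0.05. The cell types were checked against marker lists. Leptotene and zygotene markers took 0.769% of counts in untreated LZ and 0.0738% in untreated PD, and pachytene and diplotene markers 0.137% and 1.5%. Of the 12 LZ markers, 11 were lower in PD and Spo11 was higher; of the 12 PD markers, 11 were higher. Markers of other cells moved with stage too: all 14 round spermatid markers were higher in PD (0.00117% to 0.00254% of counts per LZ library, 0.171% to 0.204% per PD library), and the 4 Sertoli markers tested were lower (0.0348% to 0.0390% in LZ, 0.000271% to 0.000395% in PD), with the Sertoli marker Fshr at 0 in every library. Spermatogonia, Leydig, peritubular, macrophage and endothelial lists each took at most 0.0261% of counts in any library, and these moved with stage as well: 5 of the 7 spermatogonia markers tested were lower in PD and 2 higher, likewise 5 and 2 of the 7 peritubular ones, both Leydig ones were lower, 4 of 5 endothelial ones were higher, and of 3 macrophage ones 2 were higher and 1 lower. Their part in the results below was not tested.

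The genes with testis isoforms come first. The promoters of the cytochrome c pair and of the Cox6b pair are shown, the first for the largest change in ratio between the stages among the 4 testis pairs and the second for the octyl-L2HG values below. In all 4 pairs the testis gene and its partner went opposite ways. Each sequence is a window on GRCm38.p6 from 250 bases before the gene's RefSeq start to 50 bases from that start on. It is printed 5′ to 3′ along the gene, with capitals where searched letters were found. The RefSeq start lies 31 bases from the deposited gene start for Cycs, 3 for Cyct, 37 for Cox6b1 and 0 for Cox6b2. Motif distances below are from the RefSeq start. Cycs lies at chr6:50566520-50566819, Cyct at chr2:76360404-76360703, Cox6b1 at chr7:30626065-30626364 and Cox6b2 at chr7:4753045-4753344, all on the minus strand.
Cycs: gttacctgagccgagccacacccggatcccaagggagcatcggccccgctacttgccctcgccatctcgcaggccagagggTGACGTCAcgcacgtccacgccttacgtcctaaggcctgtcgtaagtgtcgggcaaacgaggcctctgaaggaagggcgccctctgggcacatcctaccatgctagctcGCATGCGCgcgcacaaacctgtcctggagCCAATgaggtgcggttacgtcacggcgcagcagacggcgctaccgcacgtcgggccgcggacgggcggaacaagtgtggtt
Cyct: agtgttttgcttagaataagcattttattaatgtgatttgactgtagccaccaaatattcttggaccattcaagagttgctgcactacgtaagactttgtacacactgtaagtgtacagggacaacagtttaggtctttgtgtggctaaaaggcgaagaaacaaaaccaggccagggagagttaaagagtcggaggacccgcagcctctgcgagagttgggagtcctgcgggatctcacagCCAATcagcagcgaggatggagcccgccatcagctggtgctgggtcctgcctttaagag
Cox6b1: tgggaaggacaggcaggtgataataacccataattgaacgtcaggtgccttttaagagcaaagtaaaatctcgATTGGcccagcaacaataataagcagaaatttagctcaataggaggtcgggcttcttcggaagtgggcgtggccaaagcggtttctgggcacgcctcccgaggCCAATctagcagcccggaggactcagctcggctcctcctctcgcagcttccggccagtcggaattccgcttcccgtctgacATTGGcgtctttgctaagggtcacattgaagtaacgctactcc
Cox6b2: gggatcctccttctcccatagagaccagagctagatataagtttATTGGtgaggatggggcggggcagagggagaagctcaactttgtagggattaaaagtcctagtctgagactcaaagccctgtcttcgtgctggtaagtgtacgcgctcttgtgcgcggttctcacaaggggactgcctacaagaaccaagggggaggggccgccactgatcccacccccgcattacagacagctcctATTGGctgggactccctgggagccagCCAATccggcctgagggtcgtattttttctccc
The Cycs window held TGACGTCA (the cyclic AMP response element) 169 bases before the start, GCATGCGC (the nuclear respiratory factor 1 letters, read on the other strand) 60 bases before it and CCAAT 31 bases before it. The Cyct window held 1 of the searched motifs, CCAAT, 9 bases before the start. Both Cox6b windows held CCAAT or its reverse ATTGG at 3 places each. No matches overlapped in these windows.

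A window was found for 79 of the 97 members. The motifs were chosen after the values and sequences had been seen, and each was searched on both strands. GCGCATGC, the nuclear respiratory factor 1 letters, was in 16.5% of the members' windows and in 3.75% of all 16896 promoter windows. AAGATGGC, the YY1 letters, was in 12.7% of the members' windows against 3.26% of all. TGACGTCA was in 6.33% against 2.43%, CCGGAAGT, the ETS factor letters, in 6.33% against 5.49%, and CCAAT in 45.6% against 39.0%. Windows of the members called higher in PD and of those called lower held GCGCATGC in 16.7% of 48 and 19% of 21. A match describes letters in a window and is not a binding site.

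Cytochrome c, the small carrier between complexes III and IV, went from a mix of its 2 genes in LZ to almost only the testis gene in PD. Cycs, the somatic gene (chr6:50562563-50566538), stood at 753, 634 and 602 normalized counts in untreated LZ libraries A, B and C and at 24.5, 24 and 19.5 in untreated PD. Cyct, the testis gene (chr2:76353942-76360450), stood at 212, 148 and 186 in untreated LZ and at 1554, 1696 and 1863 in untreated PD. All 3 PD libraries were below every LZ library for Cycs and above every LZ library for Cyct. Cycs fell by 4.81 on the log2 scale (SE 0.175, limma adjusted p = 3.05e-12) and Cyct rose by 3.23 (SE 0.129, limma adjusted p = 7.87e-12). Scaled by transcript length (3123 bases for Cycs, 655 for Cyct), Cyct made up 56.5% of the pair's level in LZ and 99.7% in PD. The LZ share depends on the length chosen for each gene. Without length scaling Cycs was the higher of the pair in every LZ library. Since these are bulk samples, fewer cells of a type and less RNA per cell cannot be told apart, here and below.

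Cox8, a small subunit of complex IV, showed the largest rise of a testis gene among the 4 pairs. Cox8c (chr12:102899316-102900526) stood at 362, 184 and 237 normalized counts in untreated LZ and at 6684, 6687 and 6744 in untreated PD. Cox8a, the gene used in most tissues, stood at 185, 204 and 128 in LZ and at 53.6, 67.5 and 44.1 in PD. Neither gene's groups overlapped, and LZ library A was the highest for Cox8c while the PD libraries were nearly level. Cox8c rose by 4.73 (SE 0.179, limma adjusted p = 6.12e-12) and Cox8a fell by 1.63 (SE 0.209, adjusted p = 3.52e-06). Per length, Cox8c went from 63.7% of the pair in LZ to 99.3% in PD, and from 0.309% to 5.54% of all counts of the 97 members.

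Cox6b, encoded by Cox6b2 at chr7:4751792-4753094 and Cox6b1 at chr7:30616861-30626151, sits where 2 copies of complex IV meet, and was already mostly the testis form in LZ. Cox6b2 stood at 1835, 948 and 1103 normalized counts in untreated LZ and at 3861, 3702 and 3409.7 in untreated PD. Cox6b1 stood at 171, 221 and 187 in LZ and at 75.7, 64 and 84.8 in PD. LZ library A was high for Cox6b2, yet below all PD libraries. Cox6b2 rose by 1.55 (SE 0.182, limma adjusted p = 1.7e-06) and Cox6b1 fell by 1.36 (SE 0.189, adjusted p = 8.34e-06). Per length, Cox6b2 was 86.7% of the pair in LZ and 98.1% in PD.

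Cox7b is another small subunit of complex IV. Cox7b2 (chr5:71442824-71548205) stood at 946, 532 and 716 normalized counts in untreated LZ and at 2022, 1754 and 1997 in untreated PD, and X-linked Cox7b at 60.0, 49.3 and 43.6 and 5.82, 1.14 and 0.848. The testis gene was the higher of the pair at both stages and the X-linked gene was close to 0 in PD. Cox7b2 rose by 1.43 (limma adjusted p = 8.09e-07) and Cox7b fell by 4.10 (adjusted p = 6.99e-07). Cox7b passed the filter on low values through its LZ libraries alone, as its PD mean was under 10. Per length, Cox7b2 was 96.2% of the pair in LZ and 99.9% in PD.

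The ratio of the 2 genes within a library was compared over libraries for these 4 pairs, without length scaling. The log2 ratio of normalized counts, each + 1, testis gene over partner, went from -1.87 to 6.17 for Cyct and from 0.57 to 6.92 for Cox8c. It went from 2.69 to 5.6 for Cox6b2 and from 3.79 to 9.32 for Cox7b2. Cox7b held 5, 1 and 1 raw counts in untreated PD, so the value of 9.32 depends on the added 1. In all 4 pairs the 3 PD ratios lay above the 3 LZ ratios. Each gave a two-sided exact permutation p = 0.1, the smallest that 3 against 3 allows, and 0.2 after Benjamini-Hochberg adjustment over the 12 ratio tests, so none could pass 0.05.

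**Figure D1:**
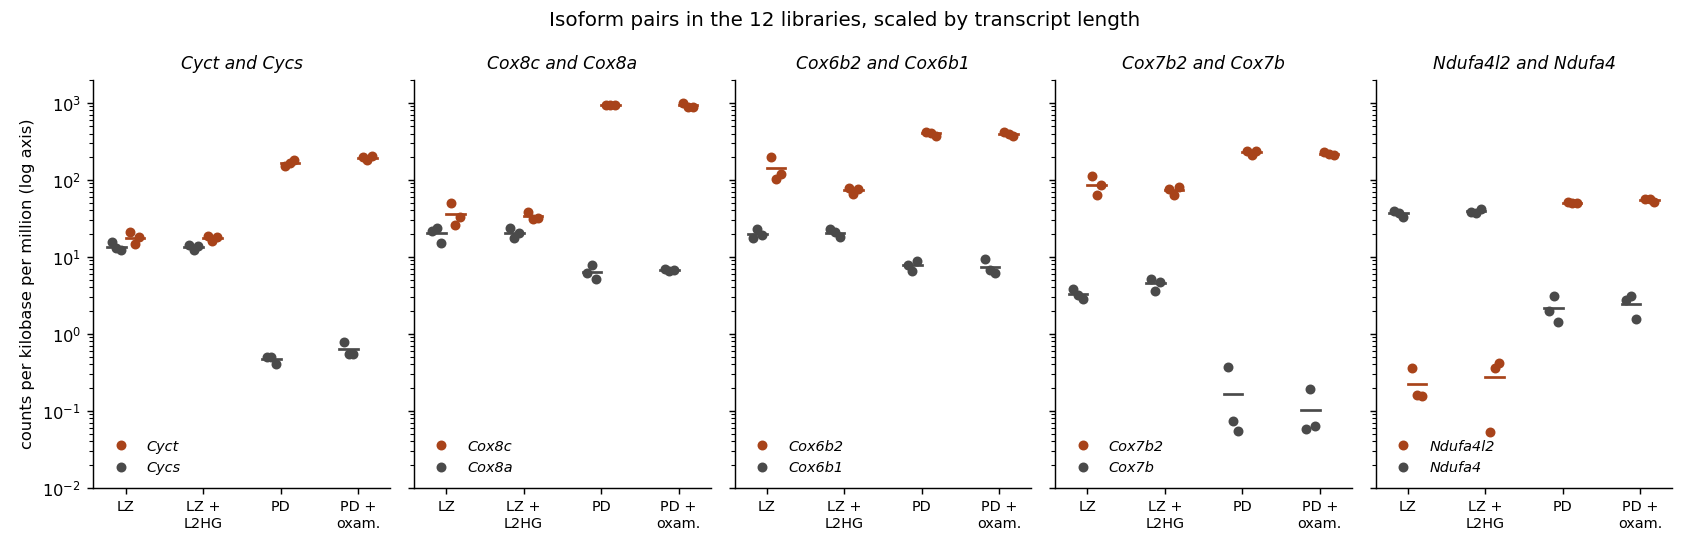
RPKM, counts per kilobase of transcript and 1000000 scaled counts (log axis), for 5 gene pairs in the 4 groups. Points are libraries, bars are group means of 3, orange is the testis gene or paralog and grey its partner. Cyct and Cycs lie close together in LZ, where Cyct is 56.5% of the pair, and far apart in PD, where it is 99.7%; Ndufa4l2 and Ndufa4 cross, from 0.6% to 95.9% for Ndufa4l2.

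Ndufa4 and its paralog Ndufa4l2 exchanged places as well. Ndufa4 stood at 378, 354 and 313 normalized counts in untreated LZ and at 18.6, 29.7 and 13.6 in untreated PD, and Ndufa4l2 at 5.22, 2.35 and 2.29 and 747, 739 and 729. Ndufa4 was low in all PD libraries and Ndufa4l2 was near 0 in all LZ libraries. Ndufa4l2 rose by 7.5 on the log2 scale (SE 0.418, limma adjusted p = 2.86e-10), which entered the test through its PD libraries, and Ndufa4 fell by 4.08 (adjusted p = 2.5e-09). Ndufa4l2 shares 32 exon bases with Shmt2 on the opposite strand, which was at 558 normalized counts in LZ and 218 in PD. The isoforms known from lung, heart and muscle (Cox4i2, Cox6a2, Cox7a1 and Cox8b) did not reach a mean of 10 normalized counts and were not tested; the highest value among them in any library was 8, for Cox6a2 in PD library B. Their partners were abundant: Cox7a2 rose by 1.93 (adjusted p = 4.14e-10), Cox6a1 by 0.47 (adjusted p = 0.00053), and Cox4i1 had 0.19 (adjusted p = 0.135, not called). With total-count scaling Cox6a1 was at -0.01 (adjusted p = 0.955) and Cox4i1 at -0.29 (adjusted p = 0.00632, called lower).

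Across all members, 92 of the 97 were tested between untreated PD and untreated LZ; Cox4i2, Cox6a2, Cox7a1, Cox8b and the empty Atp5o entry were too low. Of the 92, 57 were higher in PD (62%) and 26 lower (28.3%) by limma, beside 50.8% and 38.9% of all 16881 genes tested. The authors' deposited table called 56 of the 94 members it gives an adjusted p for higher and 28 lower, beside 41.2% and 30.9% of its 27034 genes. The median log2 fold change was 0.61 for the members and 0.49 for all genes tested, so most genes lay above 0 under this scaling. Read against that median, 50 of the 92 members (54.3%) lay above it, and 7 of the 57 called higher lay under it. With counts scaled to the library total alone, the median of all genes was -0.08 and of the members 0.13, and 42 members were higher (45.7%) and 36 lower (39.1%), beside 44.3% and 46.2% of all genes. The share of calls that were higher went from 68.7% to 53.8% for the members and from 56.6% to 48.9% for all genes. Atp5b and Cox5b, higher with the first scaling, were lower with the second. The p-values measure the spread between these libraries.

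**Figure D2:**
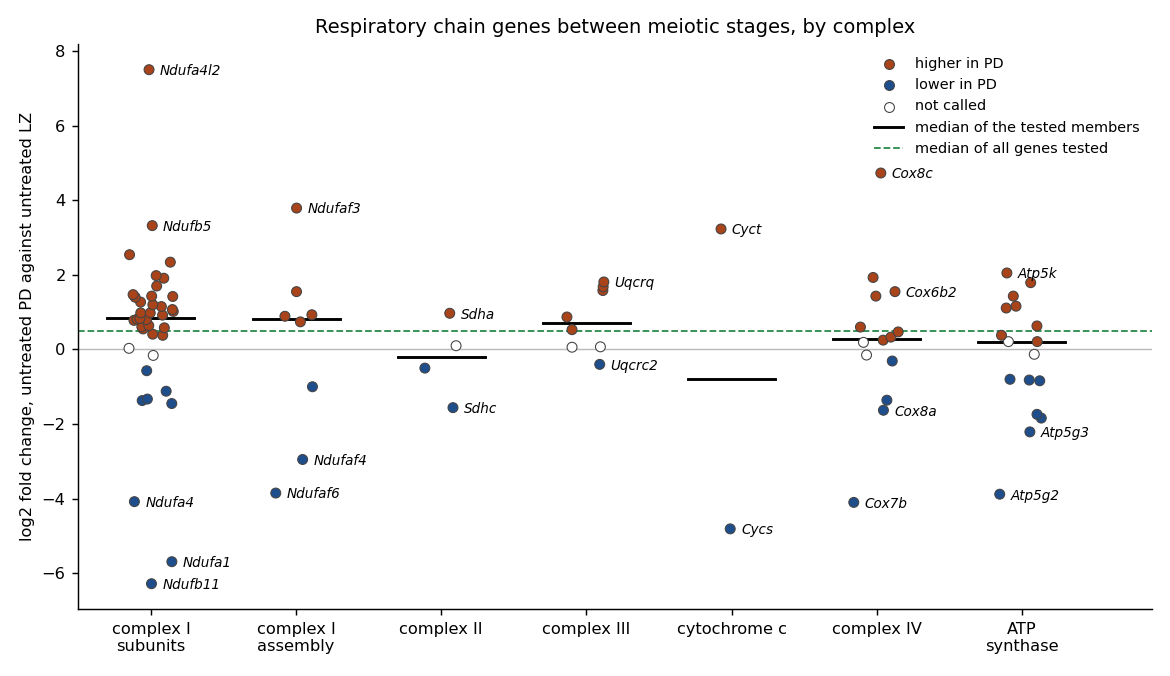
Log2 fold change of each tested member between untreated PD and untreated LZ (TMM-scaled), by complex. Points are genes, filled where limma's adjusted p was under 0.05; black bars are class medians and the dashed line is the median of all genes tested, 0.49. Complex I subunits sit mostly above 0 (29 of 39 higher) with a few far below, down to -6.28 for Ndufb11.

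Complex I subunits, which take electrons from NADH, were higher in 29 of 39 and lower in 8, with a median of 0.83; under total-count scaling 23 were higher and 10 lower. Ndufb5, a membrane-arm subunit, stood at 210.4, 190.1 and 159 normalized counts in LZ and at 1952, 1809 and 1831 in PD. It was higher in all PD libraries, by 3.32 on the log2 scale (limma adjusted p = 1.2e-12). Ndufb5 shares 616 exon bases with Mrpl47 on the opposite strand, and Mrpl47 was also higher in PD (308 to 939 normalized counts), so with the strand setting unknown part of its count is uncertain. Ndufa12, an accessory subunit, rose by 2.34 (adjusted p = 2.33e-11). The other accessory subunits called higher ran from 0.38 for Ndufv3 and 0.41 for Ndufa7 to 1.70 for Ndufb8, 1.91 for Ndufa3 and 1.98 for Ndufa6. The rise was under the median of all genes, 0.49, for Ndufv3 and Ndufa7.

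The core subunits were not uniform. Among them, Ndufs1 (0.80), Ndufs8 (1.47) and Ndufv2 (0.98) rose, and Ndufs7 fell by 1.33 (adjusted p = 5.94e-07). Ndufs3 had 0.03 (95% interval -0.22 to 0.29) and Ndufv1 -0.16 (-0.37 to 0.05), and neither was called. With total-count scaling Ndufs3 (-0.45) and Ndufv1 (-0.64) were called lower. Among the accessory subunits, Ndufa10 fell by 1.37, Ndufb6 by 1.45, Ndufab1, the mitochondrial acyl carrier protein, by 1.12 and Ndufc2 by 0.57 on the log2 scale, all called.

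All 3 X-linked members fell steeply. Ndufa1, an accessory subunit, stood at 2332, 2248 and 2098 normalized counts in LZ and at 39.6, 40.0 and 47.5 in PD. Ndufb11 stood at 706, 668 and 602 and at 6.99, 11.4 and 5.09. The groups were far apart for both, and the untreated PD mean of Ndufb11 was under 10. Ndufa1 fell by 5.69 (SE 0.134, limma adjusted p = 5.87e-14), Ndufb11 by 6.28 (SE 0.249, adjusted p = 7.49e-12) and Cox7b, given above, by 4.10. Ndufb11 shares 117 exon bases with Rbm10 on the opposite strand, which went from 552 to 51.6 normalized counts. Among the 89 autosomal members tested, 57 were higher (64%) and 23 lower (25.8%), with a median of 0.63. Beside this stood 50.8% and 38.9% of all genes tested, on any chromosome. Shares over all X-linked or all autosomal genes were not computed. Whether the members differ from other genes of their chromosomes was therefore not tested. Per length, Ndufa1 was at an RPKM of 341 ± 18.2 (SD, n = 3) in LZ, the highest mean at that stage of the 96 members with a transcript length, and at 6.48 ± 0.678 (SD, n = 3) in PD.

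The complex I assembly factors, proteins that build the complex without staying in it, split into 5 higher and 3 lower of 8. With total-count scaling they split into 4 and 3. Ndufaf3 stood at 596, 469 and 437 normalized counts in LZ and at 6968, 6911 and 6795 in PD. Its PD libraries were all more than 10 times any LZ library. Ndufaf3 rose by 3.79 (SE 0.114, limma adjusted p = 4.87e-13) and went from 0.594% to 5.7% of the members' counts. It shares 48 exon bases with Impdh2 on the opposite strand, which was lower in PD (2549 to 1143 normalized counts). Ndufaf2 rose by 1.55 (adjusted p = 1.5e-07). Ndufaf4 was at 134, 156 and 165 normalized counts in LZ and 21, 12.6 and 24.6 in PD, and Ndufaf6 at 53.9, 57.5 and 45.9 and 2.33, 4.57 and 1.7, with no overlap between stages. Both fell, with log2 fold changes of -2.95 and -3.85 (adjusted p = 1.76e-08 and 9.62e-07), and Ndufaf6 was tested through its LZ libraries alone.

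Complex II, the succinate dehydrogenase that also serves the citric acid cycle, has 4 subunits, and they did not move together. Sdha, the flavoprotein that binds succinate, stood at 1923, 1879.8 and 1751 normalized counts in LZ and at 3579, 3675 and 3657 in PD. Sdhc, a membrane anchor, stood at 1745, 1805 and 1519.6 and at 582, 525 and 612. Sdha was higher and Sdhc lower in every PD library. Sdha rose by 0.97 (SE 0.0686, limma adjusted p = 4e-09) and Sdhc fell by 1.56 (SE 0.0908, adjusted p = 4.71e-10). Sdhd, the other anchor, fell by 0.50 (adjusted p = 0.00371), with LZ library A high, and between the treated libraries of each stage it was at -0.29 (adjusted p = 0.0616). Sdhb, the iron-sulfur subunit, had 0.10 (95% interval -0.15 to 0.34) and was not called; total-count scaling put it at -0.38 and called it lower.

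Complex III passes electrons from ubiquinol to cytochrome c, and 5 of its 8 members here were higher and 1 lower. With total-count scaling 4 were higher and 3 lower. Uqcrq, a small subunit, stood at 1175, 958 and 907 normalized counts in LZ and at 3775, 3501 and 3327 in PD, and Uqcr10 at 305, 238 and 232 and 919, 856 and 705. Both groups of PD libraries lay clear of LZ. They rose by 1.81 and 1.68 (limma adjusted p = 4.77e-10 and 1.79e-08). The 2 core proteins went apart: Uqcrc1 rose by 1.58 (adjusted p = 2.73e-09) and Uqcrc2 fell by 0.40 (adjusted p = 0.00071). Uqcrc2 shares 504 exon bases with Pdzd9 on the opposite strand, which went from 18.6 to 4709 normalized counts. The Rieske iron-sulfur protein Uqcrfs1 had 0.07 (95% interval -0.20 to 0.33) and was not called, but was called lower (-0.41) with total-count scaling. Uqcrh (0.06, not called) was also called lower with that scaling (-0.42, limma adjusted p = 0.00016). Uqcr11, called higher at 0.53, then stood at 0.05 (limma adjusted p = 0.771, not called).

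In complex IV, 8 of 14 tested were higher and 4 lower, with a median of 0.29, under that of all genes; with total-count scaling the order turned, to 4 higher and 7 lower. The 4 called lower were Cox8a, Cox6b1, Cox7b and Cox7a2l, which fell by 0.31 and is known for tying complex III to complex IV. Cox8c, Cox7a2, Cox6b2 and Cox7b2 rose by more than 1 on the log2 scale. Cox5a rose by 0.60, Cox7c by 0.33 and Cox5b by 0.25. With total-count scaling Cox5b was called lower (-0.23). Cox5a (0.12, limma adjusted p = 0.272) and Cox7c (-0.15, limma adjusted p = 0.196) were then not called.

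ATP synthase members split into 8 higher and 7 lower of 17, and with total-count scaling into 5 and 9. Atp5k, a dimer subunit, stood at 106, 106 and 98.6 normalized counts in LZ and at 473, 442 and 386 in PD, and Atp5j, part of the peripheral stalk, at 816, 604 and 599.8 and 2365, 2401 and 2162. Every PD library was above every LZ library for both. They rose by 2.05 and 1.79 (limma adjusted p = 4.27e-09 and 7.1e-09), and Atp5j shares 397 exon bases with Gabpa on the opposite strand, which went from 2368 to 771 normalized counts.

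The 3 genes for subunit c, the ring that turns in the membrane, all fell. Atp5g2 stood at 547, 717 and 606 normalized counts in LZ and at 43.1, 40.0 and 40.7 in PD. Atp5g3 stood at 2052, 1704 and 1588 and at 396, 366 and 387, and Atp5g1 at 542, 493 and 409 and 332, 247 and 241. None overlapped between stages. The falls were -3.88 for Atp5g2, -2.21 for Atp5g3 and -0.82 for Atp5g1 on the log2 scale (limma adjusted p = 1.55e-10, 6.34e-11 and 0.00011). Of the catalytic head, Atp5a1 fell by 0.84, Atp5b had 0.21 (called higher, but lower with total-count scaling, -0.27), Atp5c1 rose by 1.43 and Atp5d by 1.11. The stalk gene Atp5pb fell by 1.74 and Atp5l by 1.84.

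The share of each library's counts taken by all members together overlapped between the stages. It averaged 0.651% ± 0.0406 (SD, n = 3) in untreated LZ and 0.675% ± 0.0333 in untreated PD (two-sided exact permutation p = 0.5). Within that sum, complex IV went from 0.111% to 0.153%, complex III from 0.0635% to 0.0817%, the assembly factors from 0.0150% to 0.0491% and cytochrome c from 0.00654% to 0.00961%, while ATP synthase went from 0.232% to 0.147% and complex II from 0.0455% to 0.0351%. In each of these 6 classes the stages did not overlap (exact permutation p = 0.1, the smallest possible, and 0.245 adjusted over 27 share tests). Complex I subunits overlapped (0.177% and 0.199%, exact p = 0.2). In 4 of these classes the stages overlapped once the gene that moved most in the class's direction was left out. That gene was chosen by its values, which shrinks the remaining difference by construction. Each class share is a net of rises and falls, so a level remainder does not mean unchanged genes. In complex III, Uqcrq also rose from 1.205% to 2.917% of the members' counts, and Uqcrc2 fell from 2.962% to 1.551%. Ndufaf3 went from 0.00387% to 0.0384% of counts, and the other assembly factors stood at 0.0111% and 0.0107%. Cox8c went from 0.0020% to 0.0373%, and the rest of complex IV stood at 0.109% and 0.116%. Without Uqcrc1 (0.0133% and 0.0283%) complex III stood at 0.0502% and 0.0534%, and without Sdhc (0.0131% and 0.00319%) complex II at 0.0324% and 0.0319%. ATP synthase stayed apart without Atp5a1 (0.177% and 0.125%). These shares use no TMM factor, but a percent of all counts amounts to total-count scaling. With TMM, PD levels stand higher against LZ: the median of all genes was 0.49, against -0.08 with total-count scaling. A class whose share fell may therefore not fall with TMM. The 13 subunits encoded in the mitochondrial genome took 1.96% of counts in LZ and 0.347% in PD (exact p = 0.1); 8 of the 9 tested were lower by limma, with a median of -2.11, and the part of poly-A capture in these values was not tested.

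**Figure D3:**
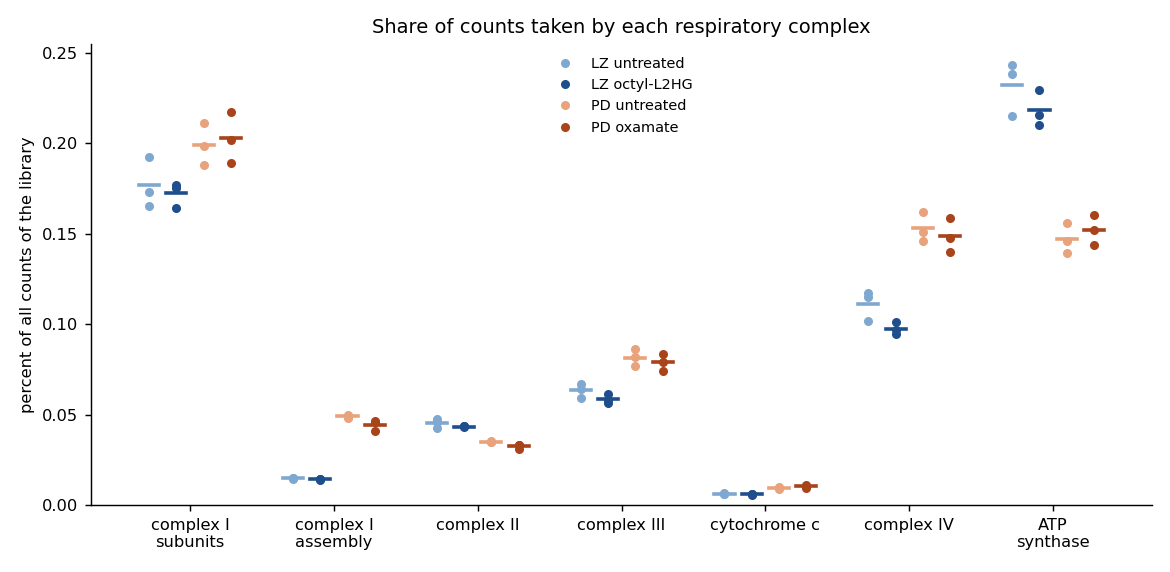
Percent of all counts of a library taken by each class of respiratory chain genes, in the 4 groups. Points are libraries and bars are means of 3. ATP synthase takes less in PD (0.147%) than in LZ (0.232%) and complex IV more (0.153% against 0.111%).

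Genes of the same pathway outside the name rule were described from fixed lists. Of 91 tested, 33 were higher in PD and 48 lower, beside 50.8% and 38.9% of all genes. Calls and changes in these lists are given under TMM scaling only, where the median of all genes was 0.49. Among complex III genes outside the name rule, 4 of 7 were higher and 3 lower; Uqcc3 (4.24) and Lyrm7 (3.49) rose, and Bcs1l, which inserts the Rieske protein, and Cyc1, the cytochrome c1 subunit, fell (-3.01 and -2.52). Complex IV assembly factors split into 9 higher and 8 lower of 20, with the copper chaperone Sco2 (3.49) and Coa3 (3.43) up and Cox15 (-3.49), which makes heme A, and Coa7 (-3.22) down. Complex I assembly factors without the Nduf name were higher in 2 and lower in 5 of 8. Dmac1 (1.25) and Tmem186 (0.22, under the median of all genes) rose, and Tmem126b (-2.80) and Timmdc1 (-1.55) fell. Assembly factors of complex II and ATP synthase were 3 higher and 3 lower of 8, among them Sdhaf4 (2.08), Fmc1 (0.87), Tmem70 (-2.04) and Sdhaf3 (-1.82).

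Lists further from the complexes followed. Cristae and supercomplex organisers were higher in 4 and lower in 6 of 11, with Chchd6 (2.62) and Immt (1.84), the central MICOS protein, up and Apool (-4.21) and Stoml2 (-2.64) down. Transcription regulators of the chain were higher in 4 and lower in 7 of 12; the coactivators Ppargc1a (4.10) and Ppargc1b (3.95) rose, and Pprc1 (-4.79) and Nrf1 (-2.09), the factor whose letters were searched above, fell. Ubiquinone synthesis was higher in 2 and lower in 9 of 13, with Coq4 (3.97) and Coq9 (1.11) up and Pdss1 (-7.55) and Coq8a (-4.63) down. ADP/ATP carriers and porins were higher in 2 and lower in 5 of 7; Vdac2 (1.88) and Vdac3 (1.52) rose, and Vdac1 (-6.63) and Slc25a4 (-5.32) fell to means of 3.35 and 1.06 normalized counts, where the fitted value depends on the pseudocount. Of 5 other entry points to ubiquinone tested, 3 were higher and 2 lower: Sqor, the sulfide oxidoreductase, rose by 7.95 and Gpd2, the mitochondrial glycerol phosphate dehydrogenase, by 6.09, while Etfa, which brings electrons from fatty acid oxidation, fell by 5.83 and Dhodh by 2.29.

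The octyl-L2HG comparison asks what the metabolite does to LZ transcripts. No member was called by limma, 0 of 91 tested, beside 0.276% of 13039 genes higher and 0.0307% lower. With no adjustment for multiple tests, 3 members passed 0.05 as higher (3.3%) and 2 as lower (2.2%), beside 10.1% and 2.85% of all genes tested. The authors' deposited table called 1 of 94 members lower and 0 higher, beside 0.207% and 0.289% of its genes. The member was Cox6b2, with a log2 fold change of -0.95 and an adjusted p of 3.56e-08 in the authors' deposited table.

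Cox6b2 stood at 1835, 948 and 1103 normalized counts in untreated libraries A, B and C and at 715, 594 and 690.2 with octyl-L2HG. Every treated library was below every untreated one, and untreated library A stood far above the other two. The limma log2 fold change was -0.90 (SE 0.182, 95% interval -1.30 to -0.51), with an unadjusted p of 0.000257 and a limma adjusted p of 0.0671, rank 5 by p among the 4955 genes with a negative change. Between libraries of one code the differences were -1.36, -0.67 and -0.68. The call depended on the processing: limma's adjusted p was 0.0169 with total-count scaling, 0.0250 with median-of-ratios scaling, 0.0492 with a pseudocount of 5, 0.0258 with the replicate block and 0.0193 with TMM against another reference library. Without untreated library A the change was -0.62 (adjusted p = 0.0322), and without B it was -1.10 (adjusted p = 0.0161). Untreated library A also had the highest share of pachytene and diplotene markers, 0.167% of counts, against 0.116% and 0.129% in B and C and 0.111% to 0.125% in the treated libraries; the part of this in the result was not tested.

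Cox6b1 stood at 171, 221 and 187 untreated and at 220.2, 204 and 174 with octyl-L2HG, and the groups overlapped. The log2 ratio of Cox6b2 to Cox6b1 went from 2.69 to 1.74, a difference of -0.95, with no overlap between groups (two-sided exact permutation p = 0.1, adjusted 0.2 over 12 tests). Without untreated library A the difference was -0.59, and without B it was -1.25. Cox7b2 to Cox7b went from 3.79 to 3.13, also without overlap (difference -0.66, exact p = 0.1, adjusted 0.2). Cox8c to Cox8a (-0.10) and Cyct to Cycs (0.01) overlapped, each with an exact p of 1. Per length, Cox6b2 averaged 86.7% of its pair untreated and 77.9% with octyl-L2HG.

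**Figure D4:**
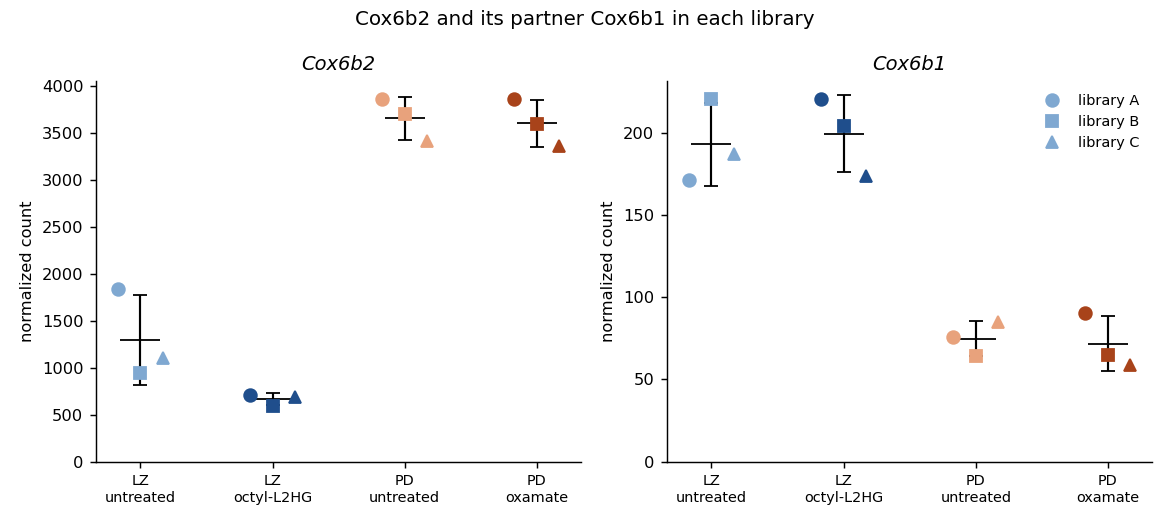
Normalized counts of Cox6b2 (left) and Cox6b1 (right) in the 12 libraries. Marker shapes give the library code, horizontal lines the mean of 3 and error bars the SD. The Cox6b2 libraries with octyl-L2HG sit between 594 and 715, all under the untreated ones (948 to 1835), and those with and without oxamate overlap.

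The other members with the smallest p were Atp5o (0.26, limma adjusted p = 0.334), Atp5c1 (0.24, 0.348), Ndufaf4 (0.52, 0.378) and Atp5h (-0.23, 0.382), none called. Groups did not overlap for 2 members that were higher with octyl-L2HG, Ndufaf4 and Sdha, and for 4 that were lower, Ndufaf2, Ndufs4, Uqcr10 and Cox6b2, or 2.2% and 4.4% of 91; over all genes tested the shares were 15.1% and 4.03%. Ndufaf4 stood at 134, 156 and 165 untreated and at 223, 209 and 218 treated, and every treated library was the higher one. The members' share of counts was 0.651% untreated and 0.611% treated (exact permutation p = 0.3). Among the classes, the complex IV share was 0.111% untreated and 0.0975% treated, without overlap, and the cytochrome c share was 0.00654% and 0.00614%, also without overlap (each exact p = 0.1, 0.245 adjusted over 27). For cytochrome c the groups nearly touched, at 0.006316% in the lowest untreated library and 0.006308% in the highest treated one. Without Cox6b2 the complex IV share was 0.101% and 0.0926%, and the groups overlapped. The difference went from -0.0138 to -0.00879 percentage points. Cox6b2 was left out for its values in these libraries, which shrinks the remaining difference by construction.

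The oxamate comparison asks what follows in PD when lactate dehydrogenase is blocked. No member was called by limma in a fit without pairing, 0 of 89 tested, nor in the authors' deposited table. Beside this stood 6.13% of 15233 genes higher and 1.65% lower by limma, and 4.21% and 1.99% of the authors' genes. With no adjustment, 3 members passed 0.05 as higher (3.37%) and 0 as lower, beside 14.7% and 6.35% of all genes tested. The 3 were Atp5g3 (0.27, SE 0.107, limma adjusted p = 0.159), Uqcrh (0.24, SE 0.104, adjusted p = 0.202) and Cycs (0.40, SE 0.175, adjusted p = 0.203). Next by p came Ndufv2 (0.19, adjusted p = 0.256) and Ndufa1 (0.27, adjusted p = 0.282).

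Cycs stood at 24.5, 24 and 19.5 normalized counts untreated and at 38.6, 26.6 and 26.6 with oxamate, so every treated library was higher, by little in B and C, and all stayed far below the LZ level. Uqcrh, the hinge protein of complex III, stood at 852, 875 and 819.8 and at 1035, 1006 and 964, also without overlap. Groups did not overlap for 18 members that were higher and 2 that were lower (Sdha and Ndufaf8) of 89, or 20.2% and 2.25%, beside 20.7% and 13.7% of all genes. Cox6b2 had -0.02 (95% interval -0.42 to 0.37). The 4 pair ratios overlapped between untreated and oxamate libraries: the differences were 0.06 for Cox6b2, -0.11 for Cox8c, -0.18 for Cyct and 0.23 for Cox7b2, with exact permutation p from 0.5 to 0.7. The Cox7b2 value rests on 1 to 5 raw counts of Cox7b per library. Its differences within library codes were 1.78, -0.83 and -0.26. The members' share of counts was 0.675% untreated and 0.671% with oxamate (exact p = 1). The assembly factors (0.0491% and 0.0446%) and complex II (0.0351% and 0.0327%) took less in every treated library (exact p = 0.1, 0.245 adjusted over 27). Within the library codes, which pair these libraries, 8 of 13 shares and ratios differed with one sign in all 3 pairs. The shares of complex II, III, IV and the assembly factors and the ratio of Cyct to Cycs were lower, and those of complex I subunits, cytochrome c and ATP synthase were higher. The complex III differences, for example, were -0.00237, -0.00284 and -0.00252 percentage points, and those of Cyct to Cycs -0.25, -0.03 and -0.25 on the log2 scale. With 3 pairs the exact paired permutation test gave p = 0.25 for each of the 8, the smallest it allows.

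Among the pathway genes outside the name rule, octyl-L2HG gave no call. With oxamate, Tfam, the mitochondrial DNA packaging and transcription factor, fell from 332 ± 8.85 to 196 ± 9.76 normalized counts (SD, n = 3; log2 fold change -0.76, limma adjusted p = 0.000652). Polrmt, the mitochondrial RNA polymerase, rose by 0.45 (adjusted p = 0.0118), Sdhaf1, a complex II assembly factor, by 0.65 (adjusted p = 0.0187) and Atpaf1, an ATP synthase assembly factor, by 0.49 (adjusted p = 0.0143).

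The oxamate change in PD minus the octyl-L2HG change in LZ was tested in 88 members, and 0 were called, beside 1.21% of 11261 genes. Cox6b2 had the smallest p, with a difference of 0.88 (SE 0.258, 95% interval 0.32 to 1.44, unadjusted p = 0.00453, limma adjusted p = 0.107). It was called with total-count scaling (0.89, adjusted p = 0.0404), the replicate block (0.88, 0.0463), TMM against another reference library (0.96, 0.0296) and without LZ untreated library B (1.08, 0.0353). Next came Uqcrh (0.40, adjusted p = 0.192), Atp5g3 (0.37, 0.241), Sdha (-0.21, 0.306) and Uqcr11 (0.57, 0.310). Tfam, no member, differed by -1.01 (adjusted p = 0.0045).

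**Figure D5:**
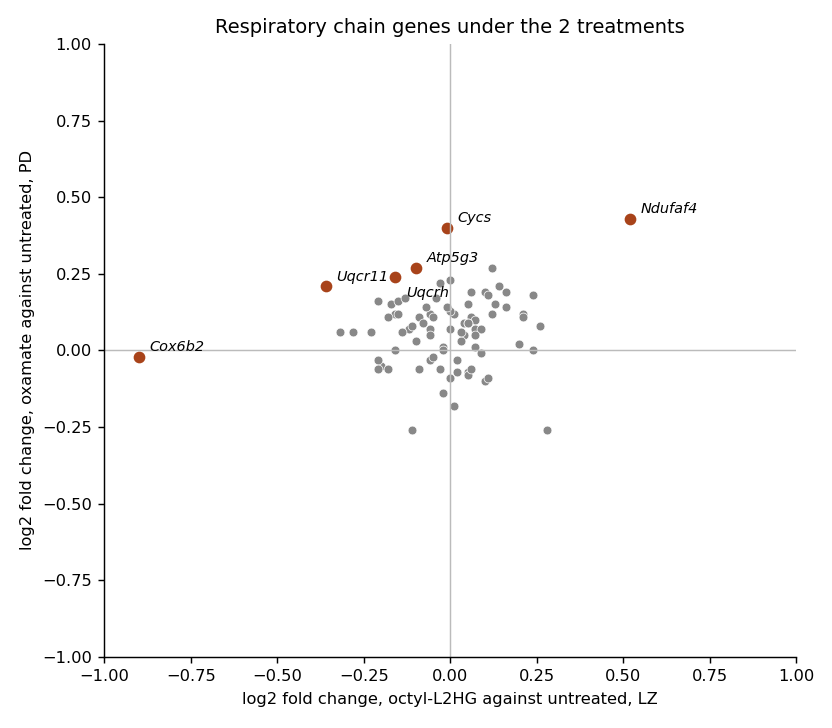
Log2 fold change of 88 members with octyl-L2HG in LZ (horizontal) against that with oxamate in PD (vertical), limma on TMM-scaled counts. Points are genes, and Cox6b2, Ndufaf4, Cycs, Uqcrh, Atp5g3 and Uqcr11 are labelled. On both axes 77 of the 88 lie within 0.25 of 0; Cox6b2 stands alone at -0.90 with octyl-L2HG and -0.02 with oxamate, and no point passed the adjusted p of 0.05.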

How the data were processed

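Poly-A RNA was sequenced in 12 libraries (4 groups of 3). Their table, as the authors deposited it, gives each gene's raw counts, normalized copies (12 columns, not used), and log2 fold changes with p-values of their own, printed only where the authors' deposited table is named. Per the submitters' processing notes, the build was GRCm38 and the tools were TopHat2 2.1.1, HTSeq 0.6.0, cutadapt 1.18, bcl2fastq 2.18.0.12 and DESeq2 1.22.2. Neither the annotation release nor the strand setting of the counting is given in the sources used here.

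The count columns hold a question mark for 6255 genes, none protein-coding, so they could not be entered as counts, and limma replaced the planned count test. Counts were scaled by trimmed mean of M values (TMM), and log2(normalized count + 1) was fitted with limma 3.58.1 (trend, robust; R 4.3.3) to group means of all 12 libraries. Genes needed a mean of at least 10 over the 12 libraries and over those compared. p-values are two-sided, adjusted by Benjamini-Hochberg over all genes tested, threshold 0.05. Fold changes are on that log2 scale, which understates changes of low genes. Python 3.11.15 with pandas 2.3.3 and numpy 2.4.6 made the shares, ratios and exact permutation tests. The fit was also run on simulated data in which few genes changed, as many up as down, with the same spread for every gene. That setting differs from the stage comparison, where most genes were called, so it does not test the scaling there.

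Transcript lengths came from the longest principal coding transcript of GENCODE M21, whose coordinates equal those of all 97 members in the table; 96 have one. Exon overlap with another gene was found for 35 members, for 29 of them on the opposite strand only. Values of these are uncertain, since counting could have split or dropped shared reads. Promoter windows are RefSeq's. Processed pseudogenes with such names (14) were not members.

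The members, lists and tests were chosen with earlier results of these data known. Named genes were the isoform pairs, X-linked members, the 2 largest rises and falls called per class and, for the treatments, the 5 smallest p; others were named after their values were seen, and one gene is not reported here. Libraries could not be matched to labelled replicate numbers. Codes shared between columns pair the libraries in the oxamate comparison, where deviations from the group means correlated at 0.357, 0.229 and 0.292. Alternatives were total-count and median-of-ratios scaling, no filter, a pseudocount of 5, voom weights, only the libraries compared, the replicate block, the treated libraries for stage and leaving out each library; TMM with another reference library, tests within library codes for oxamate and class shares without a leading gene were added after seeing the data.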

Additional observations from a re-analysis of the deposited data

Results flagged for a closer look

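Ndufa11b, a processed pseudogene named after a complex I subunit and not a member, held 97 counts over the 12 libraries, between 3 and 17 in each. It is listed because it lies outside the comparisons of the report and stands above the limit of 3 counts that a count of 0 allows. The group totals were 11 in untreated LZ, 16 with octyl-L2HG, 33 in untreated PD and 37 with oxamate. The other 13 pseudogenes of this kind reached at most 5 counts in a library. All 14 together held 158 counts, beside 1251193 for the members.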

How the results depend on the processing

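The stage counts of 57 higher and 26 lower ran from 51 to 58 and from 25 to 27 when 1 library was left out. They came to 59 and 25 between the treated libraries of each stage and to 49 and 29 with TMM against another reference library. The count of members lower with octyl-L2HG, 0 as reported, was 1 (Cox6b2) with total-count scaling, median-of-ratios scaling, a pseudocount of 5, the replicate block and TMM against another reference library, and 0 to 1 when 1 library was left out. The count called in the difference of the treatment changes, 0 as reported, was 1 (Cox6b2) with total-count scaling, the replicate block and TMM against another reference library, and 0 to 1 when 1 library was left out. The replicate block changed no other call of a count above. It fits 1 code effect shared by all 4 groups, so pairing found in PD alone is taken up only in part. No gene-level paired fit of the PD libraries alone was run. Tests within library codes gave p of 0.25 to 1 for the oxamate ratios and the members' share, by exact permutation. Samples of one code correlated only weakly in the octyl-L2HG comparison (0.0482, 0.145 and 0.0646) and between stages (0.0333, 0.0351 and 0.105). Those of different codes ran from -0.121 to 0.0628 with octyl-L2HG and from -0.067 to 0.0295 between stages. Whether the codes pair libraries there was not settled.

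Leaving out 1 library turned the sign of small differences. The oxamate difference in the members' share of counts ran from -0.0239 to 0.0159 percentage points, and the log2 ratio differences with oxamate from -0.09 to 0.19 for Cox6b2, -0.26 to 0.04 for Cox8c and -0.32 to 0.61 for Cox7b2. With octyl-L2HG they ran from -0.45 to 0.10 for Cox8c and -0.10 to 0.10 for Cyct. Total-count scaling turned the stage change of Cox4i1 to -0.29 and of Cox6a1 to -0.01. Leaving out LZ untreated library A brought the Cox4i1 change to 0.30 and a call (adjusted p = 0.0185), and between treated libraries it was 0.49. The cause was not tested, apart from the scaling itself. With 3 libraries a group, the exact tests could not go below 0.1 (0.2 with 1 left out), and genes near 10 normalized counts are limited by depth.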
